A study of Rattus norvegicus with 120 samples.

Results

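Kidneys of obese ZSF1 rats that had received BT2 together with empagliflozin were compared with kidneys of obese ZSF1 rats on vehicle, using 19 of the 120 libraries of the series. These were 10 combination libraries and 9 vehicle libraries of study B, chosen by their labels. The vehicle library of replicate 8 was left out because it held only 0.776 M counts (M, 1000000). BT2 inhibits BDK, the kinase encoded by Bckdk, which phosphorylates and switches off the branched-chain ketoacid dehydrogenase. Empagliflozin inhibits SGLT2, the sodium-glucose cotransporter encoded by Slc5a2, in the early proximal tubule.

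The branched-chain ketoacid dehydrogenase commits leucine, isoleucine and valine to oxidation in mitochondria, and the kidney is one of the organs that oxidise them. BDK turns the enzyme off and the phosphatase PPM1K turns it back on, so that a BDK inhibitor raises its activity without needing a change of its transcripts. SGLT2 recovers most of the filtered glucose, and its inhibition sends glucose into the urine and moves the organism towards burning fat.

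All 19 rats were ZSF1 obese animals of 30 weeks, a strain whose obese members lack a working leptin receptor and develop diabetes, high blood pressure and kidney disease. Compounds were mixed into the chow, and the labels state neither dose nor duration. The series text gives 10 rats for each condition, so each library stands for 1 rat, although the labels do not say whether whole kidney or cortex was taken for a given sample. Study A held the groups used for context: lean ZSF1 rats on vehicle (9 libraries used), obese rats on vehicle (10) and obese rats on BT2 alone (9). Study B also held obese rats on empagliflozin alone (10). The BT2-alone kidneys belong to study A, so that a difference between the combination and BT2 is also a difference between 2 studies, each with its own vehicle group.

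Depth was 8.36 to 19.6 M counts in the vehicle libraries and 7.78 to 22.8 M in the combination libraries. Nephron markers were present in all 19 libraries, with Umod of the thick ascending limb at 2145 CPM or more, the proximal tubule receptor Lrp2 at 910 CPM or more and Aqp2 of the collecting duct at 301 CPM or more (CPM, counts per 1000000 counts). Mitochondrial transcripts took 12.7% to 17.3% of counts in vehicle and 13.1% to 19.7% in 9 combination libraries, against 32.2% in combination replicate 10. Some libraries held transcripts of other tissues. The liver gene Alb stood at 9.77 CPM or less in vehicle and reached 836, 255, 94.6 and 24.5 CPM in combination replicates 5, 4, 1 and 2. Heart actin, Actc1, reached 259 CPM in combination replicate 7 against a combination median of 1.25 CPM, while the atrial gene Myl7 was at or near 0 there (0.133 CPM). Vehicle replicates 6 and 1 held the skeletal muscle myosin Myh4 at 126 and 110 CPM against a vehicle median of 5.55 CPM. The adrenal genes Cyp11b1 and Cyp11b2 were at or near 0 in every library, at 0.133 CPM or less.

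The combination changed many genes of the kidney. By edgeR's quasi-likelihood test with the plate as covariate and Benjamini-Hochberg adjustment, 4488 of 14187 genes passed an adjusted p of 0.05. That is 31.6% (2434 higher, 17.2%, and 2054 lower, 14.5%). "Called" is used below for a gene that passed. At least a 2-fold change was seen in 202 of the genes that rose and 282 of those that fell. Within the plates, each with fewer libraries, 2480 genes (plate 1) and 1612 genes (plate 2) were called. In 503 genes (3.55%) the groups did not overlap at all, with all combination libraries above all vehicle libraries in 311 (2.19%) and below them in 192 (1.35%). Without combination replicates 1, 4, 5 and 7 and vehicle replicate 6, 3521 genes were called, 1955 higher and 1566 lower, and without vehicle replicate 1 as well 3948. Without the 7 libraries with liver, heart or skeletal muscle transcripts (combination replicates 1, 2, 4, 5 and 7 and vehicle replicates 1 and 6), 3408 genes were called, 1877 higher and 1531 lower. In the authors' deposited table, which holds the same 19 libraries, 4829 genes have an adjusted p under 0.05, and they include 97.4% of those called here.

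**Figure D1:**
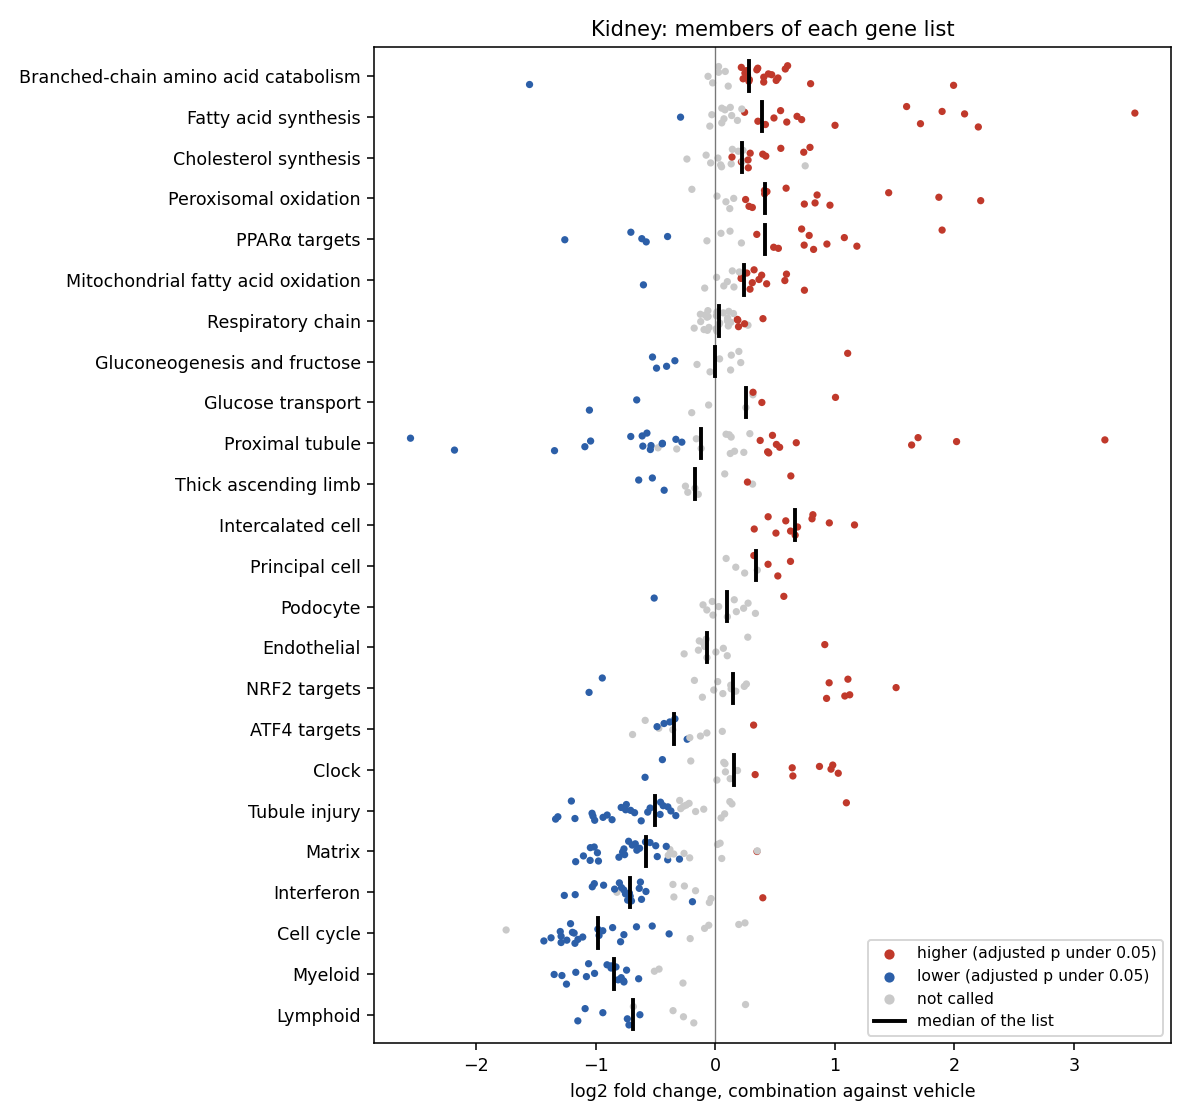
Each point is 1 gene of a list, placed at its log2 fold change in combination against vehicle kidneys (x axis), with lists on the y axis; red and blue mark genes called higher and lower, grey marks the rest, and a black bar marks the list's median. Intercalated cell and peroxisomal genes lie to the right (medians 0.67 and 0.41), and cell cycle and myeloid genes to the left (medians -0.98 and -0.85).

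Genes of the enzymes that degrade branched-chain amino acids rose together. The strongest change among them was in the gene of the phosphatase that activates the pathway. Of 26 genes tested, 19 rose and 1 fell, with a median log2 fold change of 0.28 against 0.01 over all genes. Ppm1k (ENSRNOG00000006893) ran from 8.48 to 20.3 CPM in vehicle, with a median of 13.9 CPM. In combination kidneys it ran from 38.5 to 91.7 CPM with a median of 52.9 CPM. Every combination library thus lay above every vehicle library. The change was 3.98-fold (log2 1.99 ± 0.14 SE, edgeR adjusted p = 2.84e-09, n = 10 and 9). The opposing kinase Bckdk (ENSRNOG00000019485), the target of BT2, ran from 121 to 159 CPM in vehicle, with a median of 144 CPM, and from 138 to 167 CPM in combination kidneys, with a median of 154 CPM. Its groups overlapped, and it was not called (log2 0.11 ± 0.05, edgeR adjusted p = 0.123).

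Bcat2, the mitochondrial transaminase of the first step, ran from 26.9 to 46.9 CPM in vehicle and from 51.3 to 76.4 CPM in combination kidneys. It rose 1.74-fold (log2 0.80 ± 0.09, edgeR adjusted p = 1.39e-06) with no overlap. Bcat1, the cytosolic transaminase, was the gene of the list that fell. It ran from 6.44 to 39.0 CPM in vehicle and from 3.26 to 10.8 CPM with the combination (log2 -1.55 ± 0.28, edgeR adjusted p = 0.000227), and was below the vehicle median in 10 of 10 libraries. All 4 dehydrogenase subunit genes rose, with Dbt at log2 0.51 ± 0.08, Bckdha at 0.41 ± 0.08, Dld at 0.29 and Bckdhb at 0.28 ± 0.09. Bckdhb was no longer called without combination replicates 1, 4, 5 and 7. In the leucine branch 4 of 5 rose (Mccc1, a subunit of methylcrotonyl-CoA carboxylase, at 0.53), in the isoleucine branch 3 of 4 (Acadsb 0.47), in the valine branch 3 of 4 (Aldh6a1 0.59) and in the propionyl-CoA branch 3 of 4 (Mmut, methylmalonyl-CoA mutase, at 0.61). Of the respiratory chain genes, encoded in the nucleus, 5 of 29 rose and 0 fell, with a median of 0.03. The share that rose, 17.2%, was that of all genes, also 17.2%. That count was 2 without combination replicates 1, 4, 5 and 7 and vehicle replicate 6, and 4 without the 7 libraries with other tissues' transcripts.

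**Figure D2:**
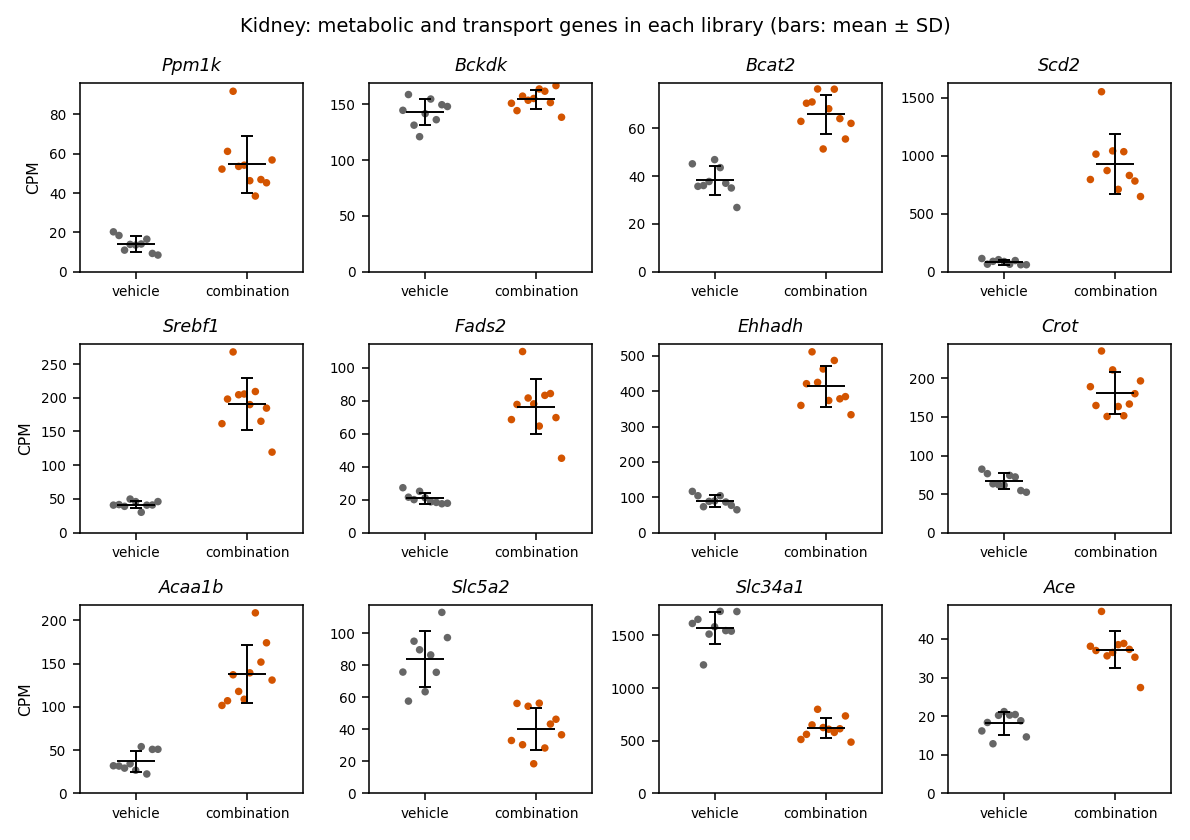
Each point is 1 library (9 vehicle, 10 combination) and each panel 1 gene, with CPM on the y axis starting at 0 and bars at the mean ± SD. Ppm1k, Scd2, Srebf1 and Ehhadh are higher in all combination libraries than in any vehicle library, Bckdk overlaps, and Slc5a2 and Slc34a1 are lower in all combination libraries.

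Genes of fatty acid synthesis and desaturation rose, and Scd2 among them had the largest increase of any called gene apart from the heart gene Actc1. Fatty acid synthesis is driven by the factor SREBP-1c, encoded by Srebf1, and desaturases introduce double bonds into its products. Scd2 (ENSRNOG00000046005), a stearoyl-CoA desaturase, ran from 60.4 to 114 CPM in vehicle and from 648 to 1552 CPM in combination kidneys, with medians of 88.3 and 851 CPM. The lowest combination library was well above the highest vehicle library, and the change was 11.4-fold (log2 3.51 ± 0.14, edgeR adjusted p = 2.9e-13). Srebf1 (ENSRNOG00000003463) ran from 30.2 to 49.8 CPM in vehicle and from 119 to 268 CPM with the combination, without overlap, and rose 4.6-fold (log2 2.20 ± 0.11). Fads2, the Δ6 desaturase of polyunsaturated fatty acids, ran from 17.5 to 27.2 CPM and from 45.1 to 110 CPM and rose 3.73-fold (log2 1.90 ± 0.11).

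Of 26 genes of fatty acid and glyceride synthesis 15 rose and 1 fell, with a median of 0.39. All 4 desaturase genes were among the 15, and so were the regulators Srebf1, Insig1 (1.00 ± 0.07), Insig2 (0.42) and Thrsp (1.72, highest in combination replicate 5 at 20.5 CPM). Pnpla3, a lipase of lipid droplets, rose by 1.60 ± 0.13 on the log2 scale. Of the enzymes of the chain itself Fasn stood at 0.49 and Acaca at 0.36, and Acly, which supplies acetyl-CoA, was not called (0.05). Scd, at 2.09 ± 0.66, had 9.67 ± 16.7 CPM in combination kidneys (mean ± SD), and was no longer called without combination replicate 5, which held the most liver transcripts (1.36 ± 0.54, edgeR adjusted p = 0.0602). Of the cholesterol genes 10 of 22 rose and 0 fell, with a median of 0.22. Among them were Tm7sf2 at 0.74 ± 0.11 and Dhcr7 at 0.55 ± 0.10, reductases of the late steps.

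Genes of peroxisomal fatty acid oxidation rose with them. Peroxisomes shorten very long and branched fatty acids by β-oxidation, and in rodents their enzymes are induced by the nuclear receptor PPARα, which binds DNA with RXR at direct repeats of AGGTCA. Ehhadh (ENSRNOG00000001770), the bifunctional enzyme of the pathway, ran from 64.7 to 117 CPM in vehicle and from 334 to 512 CPM with the combination. It rose 4.66-fold without overlap (log2 2.22 ± 0.10, edgeR adjusted p = 1.79e-12). Acaa1b, a thiolase, ran from 22.5 to 54.1 CPM and from 102 to 209 CPM (log2 1.87 ± 0.12), and its reads may be shared with the near-identical Acaa1a (0.15, not called), so that its value is uncertain. Crot, which passes shortened acyl chains to carnitine for export, ran from 52.4 to 82.3 CPM and from 151 to 236 CPM (log2 1.45 ± 0.09), again without overlap. Of 19 peroxisomal genes 14 rose and 0 fell, with a median of 0.41. Among them were the oxidase Acox2 (0.83), the proliferation factor Pex11a (0.96 ± 0.08), Ech1 (0.85 ± 0.07) and catalase, Cat (0.59).

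Promoters of 12 of these 14 genes were found in RefSeq (rat build GRCr8, which is not the build of the deposited counts), as 250 bases before and 50 bases after the annotated start. The letters AGGTCA, a single unit of the repeat, stood on either strand in 6 of the 12 (Slc27a2, Hsd17b4, Eci2, Acot4, Acot8 and Cat). They stood in 15.7% of 27457 promoters and in 12.4% of those of tested genes. Among all genes called higher the share was 13.1%, and among those called lower 13.8%. The promoter of Amacr, a peroxisomal gene that did not rise (-0.20), held the letters too. In other lists the promoters of genes that rose held them less often. The counts were 2 of 9 for the list of PPARα targets and regulators described below, 2 of 15 for branched-chain genes and 1 of 6 for cholesterol genes. The call of Slc27a2 itself was weak (edgeR adjusted p = 0.0391, log2 0.28 ± 0.10) and was lost in most alternative settings. The 2 genes with the largest increases, Ehhadh and Acaa1b, had no match in this window. The full repeat, with a single free base between the units, was in 0 of the 12 and in 0.0583% of all promoters. The sterol response letters TCACNCCAC were in 1 of the 12, and in 1.13% of all promoters. Of the 13 promoters found for the 15 fatty acid synthesis genes that rose, 0 held the single unit and 0 the sterol response letters. These matches describe the letters of short windows and say nothing of binding. The promoters of the 2 strongest genes and of 2 genes with a match are shown 5′ to 3′ on the gene's strand, with AGGTCA or its complement TGACCT in capitals. They lie at chr11:92746159-92746458 (plus strand, Ehhadh), chr8:127759520-127759819 (minus, Acaa1b), chr3:110329477-110329776 (minus, Cat) and chr6:109399604-109399903 (plus, Acot4).
Ehhadh: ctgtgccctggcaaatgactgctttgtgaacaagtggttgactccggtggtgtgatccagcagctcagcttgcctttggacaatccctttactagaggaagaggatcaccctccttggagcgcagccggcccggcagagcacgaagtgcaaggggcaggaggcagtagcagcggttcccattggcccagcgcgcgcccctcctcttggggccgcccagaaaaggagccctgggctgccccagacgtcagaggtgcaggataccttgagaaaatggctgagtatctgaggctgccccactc
Acaa1b: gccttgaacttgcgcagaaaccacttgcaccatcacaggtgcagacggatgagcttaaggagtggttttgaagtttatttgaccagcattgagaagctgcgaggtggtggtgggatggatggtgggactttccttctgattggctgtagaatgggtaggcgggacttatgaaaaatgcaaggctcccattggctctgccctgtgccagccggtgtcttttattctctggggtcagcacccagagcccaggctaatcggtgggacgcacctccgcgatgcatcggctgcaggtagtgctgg
Cat: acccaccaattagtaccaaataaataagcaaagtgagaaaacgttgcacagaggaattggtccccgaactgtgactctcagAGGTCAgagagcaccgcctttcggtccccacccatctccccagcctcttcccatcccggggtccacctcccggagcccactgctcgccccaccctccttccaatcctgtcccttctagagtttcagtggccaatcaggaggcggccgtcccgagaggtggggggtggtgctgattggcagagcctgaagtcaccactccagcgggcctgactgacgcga
Acot4: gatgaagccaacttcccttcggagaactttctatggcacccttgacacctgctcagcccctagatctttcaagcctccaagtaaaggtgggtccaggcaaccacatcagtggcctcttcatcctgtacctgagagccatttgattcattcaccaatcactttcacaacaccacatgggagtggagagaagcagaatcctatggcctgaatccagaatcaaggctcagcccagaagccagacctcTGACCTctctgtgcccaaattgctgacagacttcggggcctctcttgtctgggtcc
In Cat the match began 169 bases before the start, and in Acot4, a thioesterase gene that rose by 0.43 on the log2 scale, it began 6 bases before it.

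Other genes known as PPARα targets did not all rise. Of 20 genes tested in the list, which also holds regulators, 11 rose and 5 fell, with a median of 0.42. All 3 regulators rose, and of 5 genes of ω-oxidation 3 rose and 1 fell. Of the 12 other targets 5 rose and 4 fell, with a median of 0.09. The fatty acid ω-hydroxylase Cyp4a1 ran from 38.5 to 56.7 CPM in vehicle and from 84.5 to 136 CPM with the combination (log2 1.19 ± 0.09), and Cyp4a3 rose by 0.93 ± 0.10, although the near-identical Cyp4a genes can share reads and are uncertain singly. The pantetheinase Vnn1 (1.08 ± 0.08) and the thioesterase Acot1 (0.79 ± 0.07) rose as well, and so did Ppara itself (0.82). Angptl4, an inhibitor of lipoprotein lipase, went the other way, from 33.9 to 67.8 CPM in vehicle to 10.9 to 27.0 CPM in combination kidneys (log2 -1.26 ± 0.12, edgeR adjusted p = 1.84e-07), without overlap. The lipid droplet protein gene Plin2 (-0.40) and Ucp2 (-0.71) fell as well. In mitochondrial fatty acid oxidation 12 of 20 rose and 1 fell, with a median of 0.24. Acsl1, which activates long-chain fatty acids (0.75 ± 0.08), Eci1 (0.60 ± 0.07) and Acadm, medium-chain acyl-CoA dehydrogenase (0.58 ± 0.10), led them, and the carnitine importer Slc22a5 fell (-0.60 ± 0.06).

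Slc5a2 (ENSRNOG00000020039), whose product empagliflozin blocks, fell. It ran from 57.7 to 113 CPM in vehicle, with a median of 86.6 CPM, and from 18.6 to 56.4 CPM with the combination, with a median of 40.0 CPM. All combination libraries were below all vehicle libraries, and the gene was 2.08-fold lower (log2 -1.05 ± 0.17, edgeR adjusted p = 6.25e-05). Slc2a2, the basolateral glucose carrier GLUT2, fell by 0.66 on the log2 scale (SE 0.12), from 64.1 to 100 CPM in vehicle to 31.7 to 68.4 CPM, and was below the vehicle median in 10 of 10 libraries. Slc5a1, the SGLT1 gene of the late proximal tubule, was not called (-0.20 ± 0.17, edgeR adjusted p = 0.39). The facilitated carriers Slc2a4 (1.01 ± 0.22, highest in combination replicate 7 at 26.2 CPM), Slc2a1 (0.39 ± 0.07) and Slc2a9, a urate carrier (0.32 ± 0.09), rose.

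In gluconeogenesis and fructose use 4 of 12 genes fell and 1 rose, with a median of 0.00. Pyruvate carboxylase (Pc, -0.49 ± 0.09) and Fbp1, a fructose bisphosphatase (-0.41 ± 0.09), were among the 4. Pck1, the enzyme most often used as a marker of glucose production, was not called (-0.04, with a sign that varied between settings). The glutamine carrier Slc38a3 ran from 223 to 410 CPM in vehicle and from 558 to 820 CPM with the combination (log2 1.11 ± 0.10), without overlap. Txnip, a glucose-induced arrestin, fell (-0.46 ± 0.09), and so did Klf10 (-0.53 ± 0.10). Of 5 carriers of lactate and ketone bodies 3 fell, Slc16a1 (MCT1) at -1.09 ± 0.13, Slc5a12 at -1.14 ± 0.21 and Slc16a6 at -1.26 ± 0.21. Slc5a8, a sodium-coupled carrier of the same substrates, rose (0.53 ± 0.16), and was not called with the original run alone or in plate 2 alone. Oxct1, which takes up acetoacetate into oxidation, rose by 0.44 ± 0.09.

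Proximal tubule genes moved in both directions. Of 37 genes 11 rose and 15 fell, with a median of -0.12, so that the list as a whole gives no single direction. Among carriers of organic ions 5 of 12 rose and 5 fell. Slc22a13, a urate and nicotinate carrier, ran from 2.24 to 9.99 CPM in vehicle and from 26.3 to 82.3 CPM in combination kidneys, without overlap (9.58-fold, log2 3.26 ± 0.26, edgeR adjusted p = 1.97e-08). Slc22a7 ran from 3.90 to 10.8 CPM and from 17.8 to 29.8 CPM (log2 2.02 ± 0.17), and Slco4c1 rose by 1.70 ± 0.18. Slco1a1 ran from 9.41 to 44.9 CPM in vehicle and from 1.90 to 7.62 CPM with the combination (log2 -2.55 ± 0.27). It fell without overlap, and its reads may be shared with near-identical Slco1a genes. The basolateral anion exchanger Slc22a8, OAT3, fell as well (-1.04 ± 0.13). Among amino acid carriers Slc7a13 rose (1.64 ± 0.21) and Slc7a7 fell (-1.09 ± 0.12). Lrp2 (0.13), a marker of the segment as such, was not called, Hnf4a just missed the threshold (0.24, edgeR adjusted p = 0.0508), and Cubn rose (0.45).

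Genes of the sodium-phosphate cotransporters of the proximal tubule brush border fell. Slc34a1 (ENSRNOG00000015262), the main sodium-phosphate cotransporter of the tubule, ran from 1220 to 1728 CPM in vehicle, with a median of 1582 CPM, and from 487 to 799 CPM with the combination, with a median of 612 CPM. It was 2.54-fold lower without overlap (log2 -1.34 ± 0.09, edgeR adjusted p = 8.47e-10). Slc34a3, another cotransporter of this family, ran from 9.04 to 16.0 CPM and from 1.12 to 5.77 CPM and was 4.54-fold lower (log2 -2.18 ± 0.24, edgeR adjusted p = 5.88e-07), again without overlap. The vitamin D receptor gene Vdr rose (0.84 ± 0.14), as did Slc20a1 (0.30 ± 0.06) and Fgfr1, a receptor for the phosphate hormone FGF23 (0.38 ± 0.09). Cyp24a1, which inactivates vitamin D, ran from 81.8 to 162 CPM and from 97.5 to 195 CPM, with groups that overlapped, and was called at log2 0.42 ± 0.14 (edgeR adjusted p = 0.028). That call was lost when vehicle replicate 2, 3, 4, 5, 9 or 10, or combination replicate 3 or 4, was left out, and within each plate. Kl, the FGF23 coreceptor klotho, was not called (-0.13, with a sign that varied between settings).

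Ace, angiotensin-converting enzyme, ran from 12.9 to 21.2 CPM in vehicle and from 27.4 to 47.1 CPM in combination kidneys. It rose 2.06-fold without overlap (log2 1.04 ± 0.10, edgeR adjusted p = 1.17e-07). Mme, neprilysin, which degrades angiotensin and natriuretic peptides, rose by 0.77 ± 0.15, and Agt, the angiotensin precursor, fell by 0.49 (SE 0.12). Of the 12 genes of the angiotensin and aldosterone list 5 rose and 2 fell.

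Every intercalated cell gene tested rose. These cells of the collecting duct secrete acid or base through a V-type proton pump and the exchangers AE1 (Slc4a1), AE4 (Slc4a9) and pendrin (Slc26a4). The count was 11 of 11, with a median of 0.67, and it was also 11 of 11 without the 7 libraries with other tissues' transcripts. Slc4a9 ran from 35.4 to 65.5 CPM in vehicle and from 67.3 to 159 CPM with the combination (log2 1.17 ± 0.15), and the ammonia channel gene Rhcg from 112 to 187 CPM and from 214 to 295 CPM (log2 0.82 ± 0.09). Neither overlapped. Slc26a4 (0.95), Aqp6 (0.81 ± 0.12), Slc4a1 (0.69 ± 0.08), Atp6v1b1 (0.67) and the factor Foxi1 (0.59 ± 0.09) rose too. In bulk tissue, more cells of a type and more RNA per cell cannot be told apart.

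Among genes of other nephron segments, of 8 principal cell genes 4 rose and 0 fell (median 0.34), among them Aqp2 (0.52 ± 0.13) and the sodium channel subunits Scnn1g (0.63 ± 0.11) and Scnn1b (0.44 ± 0.10). In the thick ascending limb 2 of 11 rose and 3 fell (median -0.17), and neither Umod (-0.14) nor Slc12a1 (-0.23) was called. In the distal convoluted tubule 1 of 6 rose, which was Klhl3 (0.86 ± 0.24). Among podocyte genes 1 of 13 rose and 1 fell (median 0.10). Of the endothelial genes 1 of 12 rose, Vwf (0.92 ± 0.16), with a list median of -0.07. Over all genes 17.2% rose and 14.5% fell. The rises in the distal convoluted tubule, podocyte and endothelial lists were thus near or below the share of all genes.

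Markers of tubular injury were lower in the combination kidneys. Of 36 genes 24 fell and 1 rose, with a median of -0.50, against 14.5% lower over all genes. Clu (ENSRNOG00000016460), clusterin, ran from 727 to 1740 CPM in vehicle and from 356 to 604 CPM with the combination, without overlap (2.52-fold lower, log2 -1.34 ± 0.16, edgeR adjusted p = 1.86e-06). Timp1, an inhibitor of matrix proteases, ran from 27.2 to 52.3 CPM and from 11.0 to 23.3 CPM (log2 -1.17 ± 0.14), and Anxa1 fell by 1.03 (SE 0.10). The proximal tubule injury marker Havcr1, KIM-1, ran from 182 to 382 CPM in vehicle, with a median of 309 CPM, and from 122 to 264 CPM with the combination, with a median of 187 CPM. Its groups overlapped, all 10 combination libraries were below the vehicle median, and it was 1.54-fold lower (log2 -0.62 ± 0.15, edgeR adjusted p = 0.00351). Lcn2 was 2.01-fold lower (log2 -1.01 ± 0.16), with overlap at 41.5 to 56.8 CPM. The gene that rose was the fibrinogen chain Fgg (1.10 ± 0.40), which liver also makes, and it was no longer called when combination replicate 4 or 5, which held liver transcripts, was left out. Within plates Havcr1 stood at -0.52 ± 0.23 (plate 1, edgeR adjusted p = 0.139) and -0.74 ± 0.15 (plate 2, adjusted p = 0.00661).

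Matrix genes fell in the same kidneys, 23 of 33 with a median of -0.58. The 1 that rose, Thbs1 (0.35 ± 0.13, edgeR adjusted p = 0.0463), lost its call in most alternative settings. Without the 7 libraries with other tissues' transcripts 19 of 34 fell. Among 12 collagen genes 9 fell, with Col1a1 from 28.3 to 99.0 CPM in vehicle to 16.0 to 39.0 CPM (log2 -1.17 ± 0.18), Col6a3 at -1.10 ± 0.14 and Col3a1 at -1.05 ± 0.17. Sparc, a collagen-binding protein, ran from 279 to 444 CPM and from 163 to 267 CPM without overlap (log2 -0.78 ± 0.11). The myofibroblast genes Tagln (-0.72 ± 0.10) and Acta2 (-0.58) and the growth factor gene Tgfb2 (-0.69) fell. Tgfb1 fell too (-0.50 ± 0.14), but was not called in plate 2 alone or without combination replicates 1, 4 and 5, and Ccn2, a target of TGF-β, was not called (0.02 ± 0.09).

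Leukocyte genes fell. Of 20 myeloid genes 17 did and 0 rose, with a median of -0.85. Their summed level ran from 1301 to 2668 CPM in vehicle and from 772 to 1276 CPM with the combination, without overlap. C1qa, a complement component made by macrophages, ran from 25.2 to 56.7 CPM in vehicle and from 14.2 to 24.9 CPM (log2 -1.28 ± 0.13), and Cd68 from 10.9 to 20.4 CPM and from 4.86 to 9.03 CPM (log2 -1.25 ± 0.14). Neither gene overlapped between groups. Cd74, which escorts class II molecules, fell by 1.06 (SE 0.10) from a mean of 800 CPM. In the lymphoid list, whose genes were scarce (Cd79b of B cells at 3.46 CPM on average in vehicle), 6 of 11 fell, and 3 of 11 without the 7 libraries with other tissues' transcripts. Interferon and antigen-processing genes followed, 19 of 27 lower and 1 higher with a median of -0.71, such as the immunoproteasome gene Psmb8 (33.6 to 65.3 CPM in vehicle, 18.5 to 31.4 CPM with the combination, log2 -1.01 ± 0.10), Gbp2 (-0.93 ± 0.11) and Irf1 (-0.70 ± 0.10). Rigi, an RNA sensor, was the 1 that rose (0.40).

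Genes of dividing cells fell, 21 of 27 with 0 higher and a median of -0.98. In mitosis 16 of 18 fell. Top2a, the topoisomerase of replicating cells, ran from 8.27 to 15.0 CPM in vehicle and from 2.25 to 7.96 CPM without overlap (log2 -1.29 ± 0.19, edgeR adjusted p = 2.37e-05). Tpx2 (-1.30 ± 0.18), Cdk1 (-1.24 ± 0.21) and Mki67 (-1.17 ± 0.17) fell likewise. Pcna (-0.05) and Tyms (0.20), of DNA synthesis, were not called. Among immediate-early factors 4 of 10 fell and 1 rose, and Egr2 led them at -1.81 ± 0.29.

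**Figure D3:**
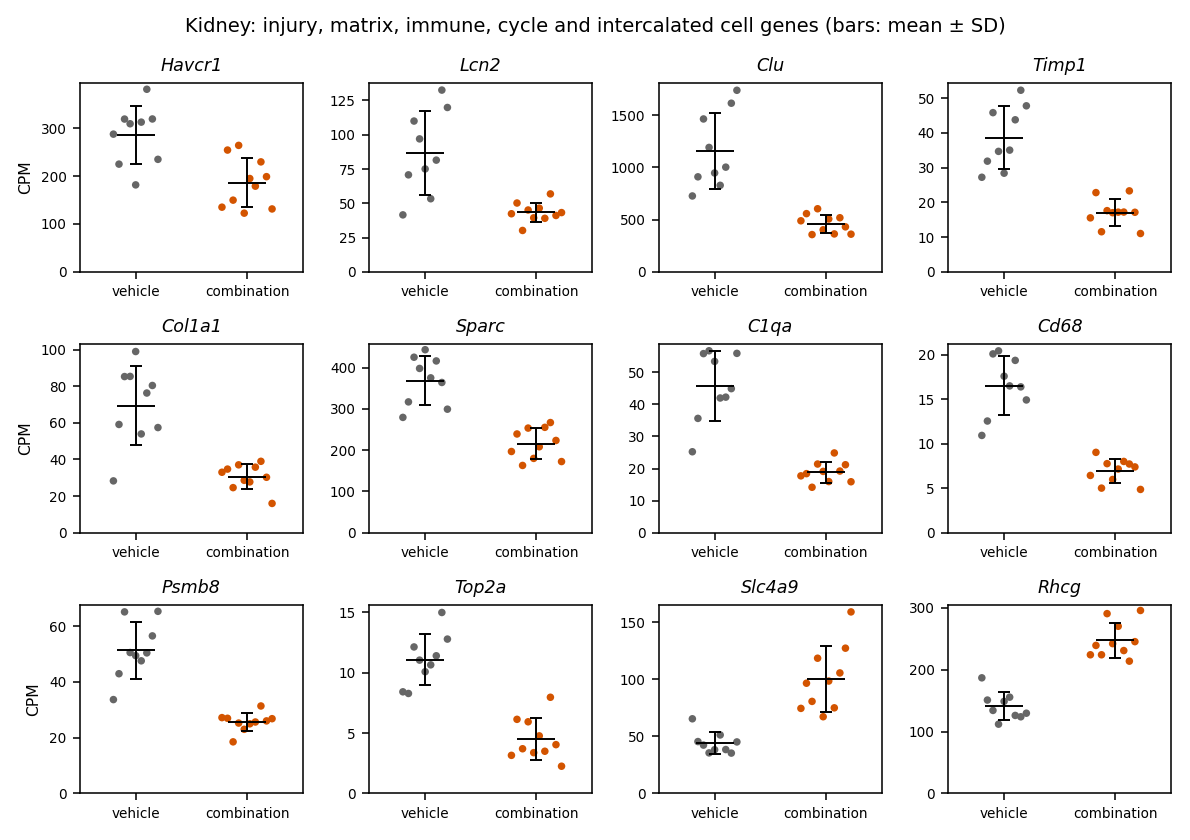
Each point is 1 library (9 vehicle, 10 combination) and each panel 1 gene, with CPM on the y axis starting at 0 and bars at the mean ± SD. Clu, Timp1, C1qa, Cd68 and Top2a are lower in all combination libraries than in any vehicle library, Havcr1, Lcn2 and Col1a1 overlap, and the intercalated cell genes Slc4a9 and Rhcg are higher in all combination libraries.

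Stress programmes split. Among targets of the oxidant-responsive factor NRF2, 6 of 18 rose and 2 fell, with a median of 0.15. The 6 included both subunits of glutamate-cysteine ligase, which makes glutathione: Gclm ran from 277 to 626 CPM in vehicle and from 820 to 1412 CPM (log2 1.12 ± 0.14), and Gclc rose by 1.08 ± 0.15. Osgin1 ran from 170 to 490 CPM and from 719 to 1149 CPM (log2 1.51 ± 0.14), without overlap. Nqo1 rose (0.93 ± 0.11), Hmox1 was not called (-0.11) and Gpx2 fell (-1.06). Gstp1 (1.11 ± 0.11) rose and Gstm1 (-0.95 ± 0.11) fell, and both belong to families of near-identical genes and are uncertain singly. Of 14 genes of the ATF4 list 5 fell and 1 rose (median -0.35). Among its 8 regulators 1 fell and 0 rose. Among its 6 genes of amino acid supply 4 fell and 1 rose, with Asns at -0.49 ± 0.09. In the clock list 7 of 16 rose and 2 fell: the output factors Tef (0.98 ± 0.14), Dbp (0.87 ± 0.19) and Nr1d1 (0.97) and the period genes Per3 (1.03 ± 0.16) and Per1 (0.65 ± 0.12) rose, Npas2 (-0.59) fell, and Clock (0.12) was not called. The labels do not state the hour at which kidneys were taken.

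Among genes with a symbol outside the lists and at least 5 CPM in a group, large increases belonged to Chrna2, a nicotinic receptor subunit (1.42 to 3.40 CPM in vehicle, 11.4 to 21.6 CPM with the combination, log2 2.91 ± 0.18, edgeR adjusted p = 6.24e-10), the gap junction gene Gjd2 (2.60 ± 0.27), the transferrin receptor gene Tfr2 (2.48 ± 0.22), Stc2, a stanniocalcin (2.30 ± 0.32), and the amino acid carrier Slc7a12 (2.18 ± 0.31). None of these 5 overlapped between groups. Large decreases belonged to Cyp2c24 (6.95 to 16.1 CPM and 0.985 to 4.33 CPM, log2 -2.21 ± 0.21, from a family of near-identical genes), Spink1 (-1.96 ± 0.24), Apcs, serum amyloid P (-1.91 ± 0.16), Fam151a (-1.89 ± 0.22) and Atp12a, a proton-potassium pump (-1.85 ± 0.27). Cyp2c11 stood at -2.88 ± 0.73, and ran from 1.83 to 14.4 CPM in vehicle. In combination replicates 1, 2, 4 and 5, which held liver transcripts, it ran from 0.551 to 8.57 CPM. In the other combination libraries it ran from 0 to 0.251 CPM. Heart genes (Actc1 4.39 ± 1.34, Myl2 3.11 ± 1.10, Myl3 2.49 ± 0.94) and skeletal muscle genes (Myh4 -2.98 ± 0.76, Atp2a1 -2.37 ± 0.64, Tnnt3 -1.96 ± 0.46, Acta1 -1.76 ± 0.65) were also called, but combination replicate 7 held 88.3% to 96.2% of the summed combination CPM of these 3 heart genes, and vehicle replicates 1 and 6 held 67.3% to 85.9% of the summed vehicle CPM of these 4 muscle genes. Without combination replicates 1, 4, 5 and 7 and vehicle replicate 6, edgeR called 0 of the 7 heart genes and 0 of the 7 skeletal muscle genes still tested.

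The response differed from that to BT2 alone in many genes. Study A compared BT2 with its own vehicle, and no library is shared with the combination comparison. By edgeR 1470 of 14869 genes were called for BT2 (9.89%), and the combination effect differed from the BT2 effect in 2320 of 14869 (15.6%, with 1389 or 9.34% more positive and 931 or 6.26% more negative). Of the 1441 genes called for BT2 and tested in both comparisons, 797 were also called for the combination, 731 of them with the same sign. The 797 are 55.3% of the BT2 calls, against 31.6% of all genes called for the combination. They are 17.8% of the combination calls, against 9.89% of all genes called for BT2. Whether empagliflozin, the study or both make the difference cannot be told apart from this contrast. For that reason the values of empagliflozin alone in study B are given beside it for some genes and lists. Empagliflozin alone shares its vehicle libraries with the combination.

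Ppm1k rose far more with the combination (log2 1.99) than with BT2 (0.25 ± 0.13, not called), with a difference of 1.73 ± 0.19 (edgeR adjusted p = 3.33e-07) and 0.36 ± 0.21 for empagliflozin alone (not called). In the branched-chain list 11 of 26 genes had a more positive effect and 1 a more negative one, against 9.34% and 6.26% of all genes. With empagliflozin alone 0 of these 26 were called. It lowered 5 of 19 peroxisomal genes and raised 0, against 1.11% lower over all genes. Scd2 rose with BT2 (2.46 ± 0.13) and with empagliflozin (0.58 ± 0.13), and the combination exceeded BT2 by 1.05 ± 0.18 (edgeR adjusted p = 0.000114). Crot stood at 0.34 ± 0.09 with BT2 and differed by 1.10 ± 0.13, and Fads2 at 0.81 ± 0.12 and differed by 1.08 ± 0.18. Srebf1, at 1.87 ± 0.14 with BT2, differed by 0.33 ± 0.19, and Acaa1b, at 2.08 ± 0.15, by -0.20 ± 0.21, and neither difference was called. Slc22a13 (2.58 ± 0.26 with BT2) and Cyp2c24 (-2.73 ± 0.22) were likewise not called as different.

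**Figure D4:**
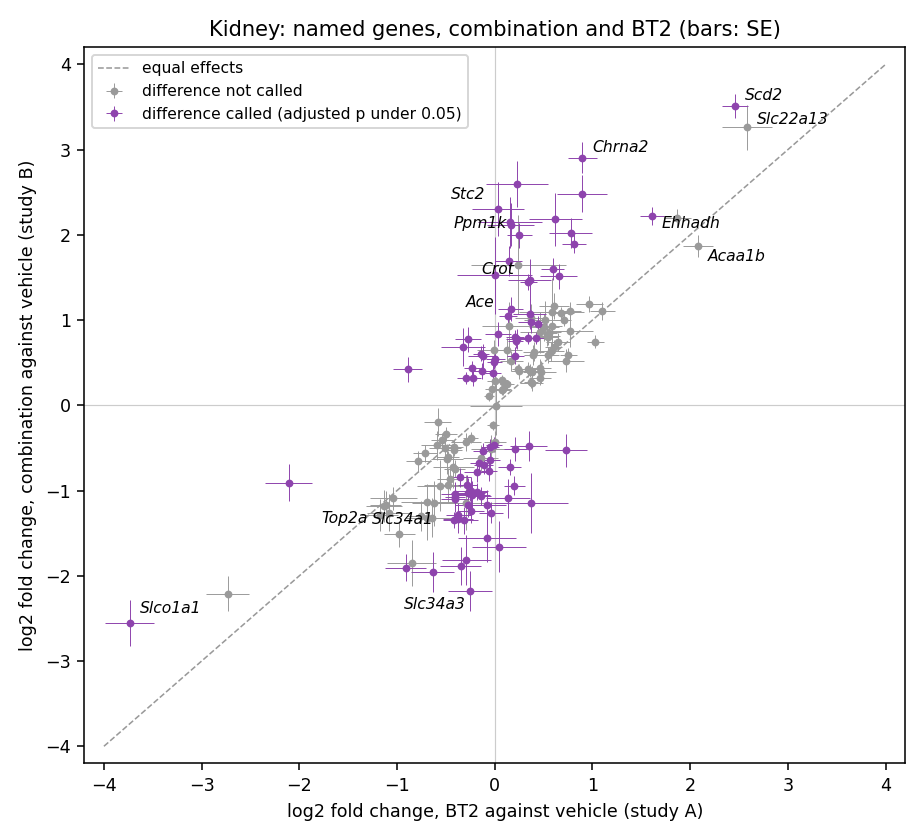
Each point is 1 named gene, with the log2 fold change of BT2 against vehicle in study A on the x axis, that of the combination against vehicle in study B on the y axis and bars of 1 SE; purple marks a called difference and the dashed line equal effects, and muscle, urothelial and Cyp2c11 points are left out. Acaa1b and Slc22a13 lie close to the line, Ppm1k, Chrna2 and Stc2 lie above it near a BT2 effect of 0 to 1, and Slc34a3 lies below it.

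Part of the injury, matrix and myeloid genes fell more with the combination than with BT2. The difference was called more negative in 12 of 37 injury genes (Clu -0.96 ± 0.21, Timp1 -0.90 ± 0.18). The same held for 13 of 35 matrix genes (Sparc -0.72 ± 0.12, Col1a1 -1.09 ± 0.28) and 12 of 21 myeloid genes (C1qa -0.92 ± 0.18). It was called more positive in 0 of each. Over all genes the difference was more negative in 6.26% and more positive in 9.34%. Against vehicle, where 4.67% of all genes fell with BT2, BT2 lowered 2 injury, 0 matrix and 6 myeloid genes. Havcr1 was not called as different (-0.48 ± 0.25, edgeR adjusted p = 0.195). Cell cycle genes were the contrary case: BT2 lowered 15 of 27, and the difference was called in 0 of 27 by edgeR, with Top2a at -1.18 ± 0.19 for BT2 and a difference of -0.11 ± 0.26. Of the intercalated cell genes 8 of 11 rose with BT2, against 5.21% of all genes, and the difference was called in 0 of 11. At an unadjusted p under 0.05 the difference passed in 2 of 27 cell cycle genes and 2 of 11 intercalated cell genes. Over all genes empagliflozin alone lowered 1.11% and raised 0.658%. It lowered 0 of 37 injury, 0 of 34 matrix, 0 of 20 myeloid and 0 of 27 cell cycle genes. It raised 1 injury gene, and 0 matrix, myeloid, cell cycle or intercalated cell genes.

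For some genes the combination is set beside each compound alone. Cyp24a1 was lower with BT2 (-0.89 ± 0.15), higher with empagliflozin (1.89 ± 0.15) and in between with both (0.42), and the combination differed from BT2 by 1.32 ± 0.20 (edgeR adjusted p = 3.55e-05). Ace stood at 0.14 ± 0.09 with BT2, 1.19 ± 0.12 with empagliflozin and 1.04 with both, and Vdr at 0.03 ± 0.13, 1.13 ± 0.19 and 0.84. Slc34a1 stood at -0.42 ± 0.11 with BT2, -0.42 ± 0.09 with empagliflozin and -1.34 with both, and its difference from BT2 was -0.93 ± 0.15. Slc5a2 was not called with BT2 (-0.23 ± 0.18) or with empagliflozin (0.13 ± 0.24), and differed by -0.82 ± 0.26, a difference no longer called without combination replicates 1, 4, 5 and 7 (-0.69 ± 0.26). Angptl4 stood at -0.04 ± 0.13 with BT2 and -0.57 ± 0.16 with empagliflozin, neither called, and differed by -1.22 ± 0.18. Slc5a8 fell with BT2 (-0.98 ± 0.16), stood at -0.14 ± 0.16 with empagliflozin (not called) and rose with both, a difference of 1.53 ± 0.24 (edgeR adjusted p = 3.51e-05). Slco1a1 stood at -3.74 ± 0.25 with BT2, and the combination lowered it less, by a difference of 1.20 ± 0.34 (edgeR adjusted p = 0.0138). Against empagliflozin alone, in a comparison that shares the combination libraries, edgeR called 4671 of 14434 genes (32.4%), and for empagliflozin against vehicle it called 255 (1.77%).

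Most genes called both for obesity in study A and for the combination had opposite signs in the 2 comparisons. Obese vehicle kidneys differed from lean vehicle kidneys in 5423 of 14240 genes (38.1%), and these libraries are not part of the combination comparison. Of 13881 genes tested in both, 2640 were called in both, which is 49.8% of the obesity calls and 59.5% of the combination calls. Opposite signs were found in 2409 of the 2640 (91.3%). Among genes not called for obesity, 21.0% were called for the combination. Among the genes called in both, 1184 of the 1246 that obesity raised (95.0%) were lower with the combination, and 1225 of the 1394 that it lowered (87.9%) were higher. In all, obesity raised 2735 and lowered 2566 of the genes tested in both. Of 683 genes at least 2-fold higher in obese kidneys, 436 were called lower and 7 higher with the combination, with a median log2 change of -0.71. Of 107 genes at least 2-fold lower, 49 were called higher and 14 lower, with a median of 0.50. The effects correlated at r = -0.64 over the genes called for obesity, as a description across genes, which are not independent replicates.

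**Figure D5:**
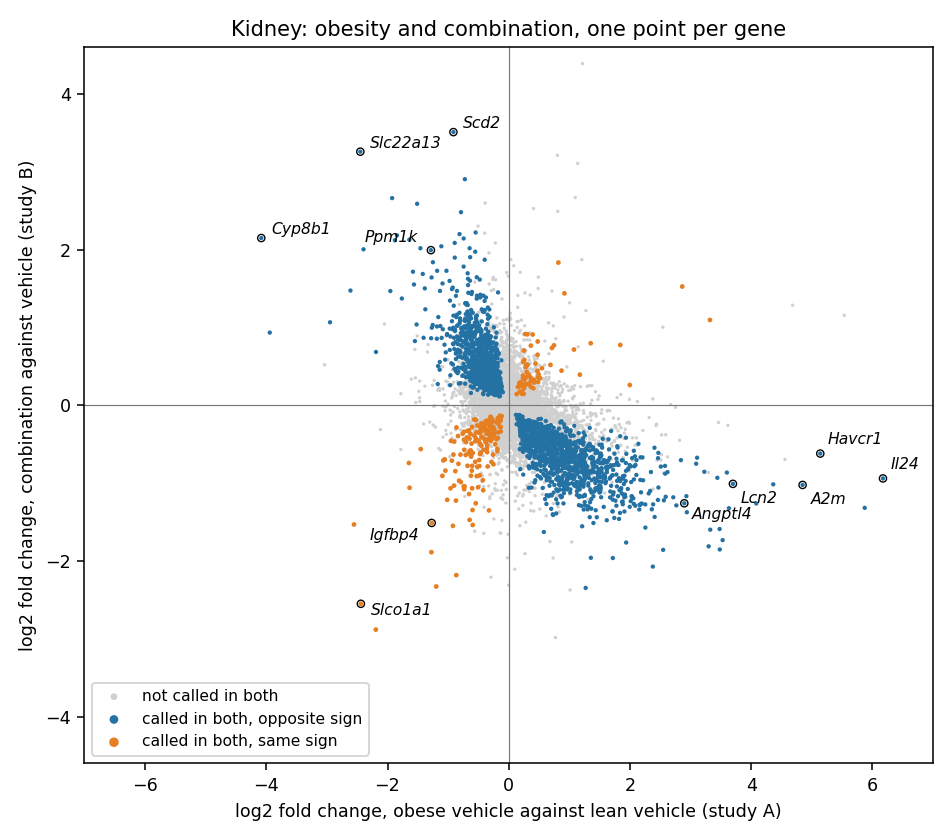
Each point is 1 gene tested in both comparisons, with the log2 fold change of obese against lean vehicle kidneys on the x axis and of combination against vehicle kidneys on the y axis; blue marks genes called in both with opposite signs, orange genes called in both with the same sign, grey the rest, and circles mark the genes labelled. Most genes called in both lie in the upper left or lower right (91.3%), and Il24 and Havcr1 lie at the far right, with obesity effects of 6.17 and 5.14 and combination effects of -0.94 and -0.62.

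The genes that obesity had raised most among those called in both with opposite signs fell by part of that amount. Il24 was 6.17 higher on the log2 scale in obese kidneys and -0.94 ± 0.20 with the combination, Il19 5.87 and -1.32 ± 0.23, Havcr1 5.14 and -0.62 ± 0.15, and A2m, a protease inhibitor, 4.85 and -1.02 ± 0.17. Mmp12, a macrophage elastase, stood at 3.63 and -1.32 ± 0.25, and Atp12a at 3.48 and -1.85. Among genes that obesity lowered, Cyp8b1, of bile acid synthesis, stood at -4.08 and rose by 2.15 ± 0.30, Cftr at -2.61 and 1.48 ± 0.24, Slc22a13 at -2.45 and 3.26, and Ttll8 at -1.88 and 2.12 ± 0.25. Ppm1k, at -1.28 in obese kidneys, rose by 1.99. Whether the treated kidneys reached lean levels was not tested, since lean rats were part of study A only.

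A smaller set moved the same way in both comparisons. Slco1a1 was lower in obese kidneys (-2.44) and lower with the combination (-2.55), and so were Fam151a (-1.28 and -1.89), Igfbp4, a binding protein of insulin-like growth factors (-1.27 and -1.51), and Sult4a1 (-1.09 and -0.91 ± 0.22). Slc34a1 (-0.60 and -1.34) and Slc5a2 (-0.51 and -1.05) were lower in both as well. On the other side stood Abcb1b, a multidrug exporter (1.84 and 0.78 ± 0.12), and Slc66a3 (1.35 and 0.80 ± 0.09).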

How the data were processed

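RNA-seq of kidney was deposited as one table of estimated counts for each plate and run. Per the submitters' processing notes the authors used STAR 2.7.3a, Salmon 1.5.2 and DESeq2 1.34.0 with the build mRatBN7.2, although these notes give no order of steps. The deposited expected counts were not whole in 6.61% of values. The original and, where made, repeat run of a library were summed and rounded to whole numbers. A further 82 count columns matched no sample and were not used, and 0 rows lacked a gene name. The authors' deposited table for this comparison gives scaled counts (a signal), log2 fold changes and p-values, and its scaled counts were used only to check the sums and its fold changes only where named. Symbols come from the deposited tables, and 607 of 636 list genes were matched.

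Libraries were grouped by their labels. The vehicle replicate 8 and BT2 replicate 2 libraries were left out for low depth, and lean replicate 8 for muscle transcripts seen in earlier results. Genes were filtered with filterByExpr, scaled by TMM and tested with edgeR 4.0.16 (R 4.3.3) by its quasi-likelihood F test, with the plate (replicates 1 to 5 and 6 to 10) as covariate and Benjamini-Hochberg adjustment over all genes tested. Errors of log2 fold changes are standard errors, and CPM uses the TMM factors of the 19 libraries. The p-values set each effect against the spread between rats within groups. These rats were of 1 study, or of both studies for the difference from BT2. The fit was tested on simulated data. Alternatives were DESeq2 1.42.0, other scaling and filters, the plate term, single plates, the replicate block, runs and left-out libraries. Named genes were chosen by rule: the 12 highest and 12 lowest called genes of at least 5 CPM, up to 5 called members of each list, genes of known role, and the 8 extreme differences from BT2 and 6 extreme obesity effects in each direction. Further list members were named after their values were seen. Some genes that the rule names are not reported here. The comparison, its members and the lists were chosen with earlier results of these data known.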

Additional observations from a re-analysis of the deposited data

Results flagged for a closer look

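Of 370 sets of libraries examined (a gene or marker sum in 1 group), 50 held a library far from the others by Dixon's criterion, and chance flags about 1 in 20. No explanation was weighed.

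Combination replicate 3 lay apart in the direction of the treatment effect or above its group for Ppm1k (91.7 CPM), Scd2 (1552 CPM), Slc22a13 (82.3 CPM), Gclm (1412 CPM), Slc7a12 (426 CPM), Cyp8b1 (22.3 CPM), Cftr (12.8 CPM), Cubn (565 CPM), Lrp2 (1780 CPM), Slc5a8 (30.9 CPM) and Hnf4a (714 CPM), and below its group for Angptl4 (10.9 CPM). Combination replicate 4 was apart for Vdr (59.3 CPM), Scnn1b (139 CPM), Scnn1g (105 CPM) and Atp12a (4.77 CPM).

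Libraries with transcripts of other tissues were apart as well. Combination replicate 5 held summed hepatocyte markers of 1978 CPM, Scd at 53.5 CPM, Fgg at 28.7 CPM, Cyp2c11 at 8.57 CPM, Thrsp at 20.5 CPM, summed lymphoid markers of 49.0 CPM and Pcna at 52.6 CPM. Combination replicate 7 held summed heart muscle markers of 1881 CPM, with Actc1 at 259 CPM, Myl2 at 161 CPM and Myl3 at 120 CPM, summed skeletal muscle markers of 57.8 CPM with Acta1 at 19.8 CPM, and Slc2a4 at 26.2 CPM and Slc2a1 at 78.1 CPM. Combination replicate 8 held Tnnt3 at 2.97 CPM. Vehicle replicate 6 held Acta1 at 61.6 CPM and Tnnt3 at 25.2 CPM, and vehicle replicate 1 held summed urothelium markers of 170 CPM. Combination replicate 10 had a mitochondrial share of 32.2%.

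Further vehicle libraries stood apart for other genes. Replicate 2 was high for Slc22a13 (9.99 CPM), Slc22a7 (10.8 CPM), Slc7a12 (137 CPM) and Gjd2 (2.50 CPM), and replicate 1 was high for Bcat1 (39.0 CPM), Scd (6.52 CPM) and Scnn1g (82.6 CPM). Replicate 3 was low for Slc34a1 (1220 CPM), and replicate 4 was apart for Slc16a1 (21.7 CPM). Replicate 5 was apart for Aqp6 (83.5 CPM) and Per1 (50.0 CPM), and replicate 10 was low for Ccn2 (81.9 CPM) and apart for Dbp (31.7 CPM) and Thrsp (6.99 CPM).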

How the results depend on the processing

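Of the counts of genes called for the combination against vehicle, those within 1 plate moved by more than 1.5 times. Plate 1 alone gave 2480 (1335 higher, 1145 lower) and plate 2 alone 1612 (861 higher, 751 lower), with fewer libraries in each. Leaving out 1 library gave 3926 (without vehicle replicate 3) to 4757 (without vehicle replicate 1) called genes, 1972 to 2580 higher and 1888 to 2315 lower. DESeq2 called 4796 genes, and edgeR with DESeq2's size factors 4471. The replicate block gave 3727 genes and 79.9% of the calls of the fit without it. For the difference from BT2 the block gave 1393 (900 more positive, 493 more negative) in place of 2320 (1389 and 931). These 3 counts moved by more than 1.5 times as well. The labels do not say whether the replicate numbers pair the libraries. Same-numbered libraries correlated at -0.465 to 0.285, with 1 of 9 pairs above 0.1 and 1 of 9 best with its own number. Correlations of 9 pairs of different rats cannot decide whether a block was shared. Of the 2640 genes called in both the obesity and the combination comparison 91.3% had opposite signs, and 92.4% of those called without combination replicates 1, 4, 5 and 7 and vehicle replicate 6, a setting chosen after seeing the data. It gave 3521 called genes, and 3948 without vehicle replicate 1 as well and 3408 without that and combination replicate 2, both also chosen after seeing the data.

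Genes not called in the comparison changed sign in some settings: Acly -0.0644 in plate 2 alone, Slc5a1 0.0376 without combination replicates 1, 4, 5 and 7 and vehicle replicate 6, Ccn2 -0.0380 in plate 1 alone, -0.0269 without combination replicates 1, 4, 5 and 7 and -0.0218 with the original run alone, and the difference of Top2a from BT2 0.00481 without combination replicates 1, 4, 5 and 7. Pck1 stood at 0.0936 in plate 2 alone, 0.0336 with vehicle replicate 8, 0.00931 without combination replicates 1, 4 and 5 and 0.0692 without those, 7 and vehicle replicate 6, and between -0.100 and 0.0314 over single libraries left out (0.00741 without vehicle replicate 1), where Slc5a1 ran from -0.276 to -0.0737 and Ccn2 from -0.0669 to 0.0442. Without combination replicates 1, 4, 5 and 7 and vehicle replicates 1 and 6, Kl stood at 0.0760, Pck1 at 0.112, Slc5a1 at 0.0364 and Ccn2 at -0.00209. The cause was not tested. Over the genes named, 5784 of the values under alternatives kept their direction and side of the threshold, 186 missed it, 15 newly passed it and 18 changed sign. Depth limits scarce genes, and with vehicle replicate 8, at 0.776 M counts, added, 4510 genes were called.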
